A study of Mus musculus with 6 samples.

Results

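Baz1b and the genes of the ISWI family of chromatin remodellers were followed in RNA sequencing of B cells from mouse lung. They comprise 9 genes (Baz1b, Baz1a, Baz2a, Baz2b, Smarca5, Smarca1, Bptf, Rsf1 and Cecr2) of 22481 genes in the deposited table, each matched by its symbol to a single row. Baz1b was chosen by its counts in an earlier analysis of these same values, in which it was called higher in 5xFAD, so its difference between genotypes is described here without a test. The other 8 were chosen because their proteins belong to ISWI complexes or are the closest relatives of Baz1b, and the question put to them was whether they differed together with Baz1b.

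The 6 samples were 3 from 5xFAD mice and 3 from wild-type (WT) mice, all C57BL/6 and 3 months old. 5xFAD mice carry mutant human transgenes of inherited Alzheimer's disease under the neuronal Thy1 promoter, and are a model of amyloid deposition in brain rather than of a lung disease. The cells had been separated from lung by magnetic selection and frozen. Ribosomal RNA was depleted before a stranded total RNA preparation, a kind of library in which unspliced RNA can be sequenced too. Separate animals are not named for the samples, so p-values measure only the spread between these 6 samples, which may be technical.

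Estimated counts summed to between 628581 and 782297 per library, of which Lars2 alone held 37.5% to 45.7%. Counts are the authors' estimates of fragments per gene, already scaled between libraries, so that a single read was worth 0.917 to 1.04 counts and the totals correspond to 604521 to 827040 reads. FPKM are these scaled counts divided by transcript length and by a constant shared by all 6 libraries. All 11 B cell markers in the table were detected, but so were all 12 endothelial, 7 neutrophil, 7 macrophage, 9 T and NK cell, 8 fibroblast and 8 epithelial markers, so the libraries held RNA of other lung cells too. Summed B cell markers ranged from 389 to 731 FPKM in 5xFAD and from 291 to 358 FPKM in WT, and summed endothelial markers from 442 to 533 FPKM in 5xFAD and from 550 to 686 FPKM in WT. Both sums separated the genotypes, and their part in the differences below was not tested. In such bulk samples, fewer cells of a type and less RNA per cell cannot be told apart.

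ISWI remodellers slide nucleosomes along DNA with an ATPase, SMARCA5 (SNF2H) or SMARCA1 (SNF2L), that joins a large accessory subunit. The accessory subunit sets where the enzyme acts: BAZ1B (WSTF) forms the WICH complex with SMARCA5 at replicating and transcribed chromatin, BAZ1A (ACF1) forms ACF and CHRAC, BAZ2A (TIP5) forms the rRNA-gene silencing complex NoRC, RSF1 forms RSF, BPTF forms NURF and CECR2 forms CERF. Since BAZ1B and BAZ1A share SMARCA5, the levels of their genes are set beside that of Smarca5 below, as a description only. SMARCA5 is known to be needed for blood cell development in mice.

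RefSeq promoters (GRCm38.p6, 250 bases before to 50 bases after the start) were found for 6 of the 9 genes. Those of Baz1b and of both ATPase genes are shown, because Baz1b was the 1 member whose values did not overlap between genotypes on either scale, Smarca5 encodes its enzyme and Smarca1 was the member without any counts. Capitals mark the GC box (GGGCGG, or CCGCCC on the other strand) and the CCAAT box (CCAAT, or ATTGG on the other strand).
Baz1b, chr5:135187073-135187372, plus strand: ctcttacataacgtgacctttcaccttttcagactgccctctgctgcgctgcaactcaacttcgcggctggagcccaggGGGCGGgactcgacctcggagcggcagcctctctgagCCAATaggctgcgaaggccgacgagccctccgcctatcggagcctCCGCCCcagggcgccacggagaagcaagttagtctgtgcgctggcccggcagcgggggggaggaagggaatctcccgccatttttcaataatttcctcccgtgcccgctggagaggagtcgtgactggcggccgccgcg
Smarca5, chr8:80739410-80739709, minus strand: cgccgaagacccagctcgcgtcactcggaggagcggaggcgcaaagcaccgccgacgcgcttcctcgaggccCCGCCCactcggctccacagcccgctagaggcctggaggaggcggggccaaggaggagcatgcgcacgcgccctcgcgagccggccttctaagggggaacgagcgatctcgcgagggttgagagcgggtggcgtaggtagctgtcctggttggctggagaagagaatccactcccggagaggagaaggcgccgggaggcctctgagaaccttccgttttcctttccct
Smarca1, chrX:47892564-47892863, minus strand: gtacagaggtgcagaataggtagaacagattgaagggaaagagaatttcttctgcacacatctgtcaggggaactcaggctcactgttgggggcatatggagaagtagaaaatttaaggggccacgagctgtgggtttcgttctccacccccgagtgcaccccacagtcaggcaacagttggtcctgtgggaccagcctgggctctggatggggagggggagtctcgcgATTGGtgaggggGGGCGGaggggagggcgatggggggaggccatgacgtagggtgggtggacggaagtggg
The Baz1b window held 2 GC boxes, 1 CCAAT box and 27 CG dinucleotides, the Smarca5 window 1 GC box, no CCAAT box and 32 CG dinucleotides, and the Smarca1 window 1 of each box and 9 CG dinucleotides. Of 32851 RefSeq promoters of this length, 35.7% held a GC box and 37.4% a CCAAT box on either strand, and the median held 7 CG dinucleotides. The Baz1b and Smarca5 windows were thus both CG-rich, with more CG than 84.5% and 90.5% of promoters, while the Smarca1 window lies near the middle at 54.2%. The Smarca1 window ends at 47892863, inside the GENCODE gene, which runs to 47892974, whereas the Baz1b and Smarca5 windows span the GENCODE gene start. Its lower CG content may therefore belong to the start used, which was not tested. None of the windows shown held TATAAA on either strand, which 13.6% of promoters did.

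Baz1b, the gene for the WSTF subunit (ENSMUSG00000002748, GRCm38 chromosome 5, 135187264 to 135246129, plus strand), had 190, 201 and 129 estimated counts in 5xFAD replicates 1, 2 and 3, against 19.3, 16.2 and 26.1 in WT replicates 1, 2 and 3. In FPKM it stood at 20.5, 19.8 and 11.6 in 5xFAD and at 2.23, 1.86 and 3.01 in WT. Values of 5xFAD and WT did not overlap on either scale, and the lowest 5xFAD library, replicate 3, was still well clear of the highest WT library, replicate 3. The fitted log2 fold change was 2.95 (SE 0.48), or 7.75-fold. These are the values by which the gene was chosen: by the same rule, an edgeR adjusted p under 0.05, 0.104% of 9651 tested genes were called higher in 5xFAD and 0.0104% lower. Without overlap, 14.3% of tested genes were higher and 3.98% lower in counts, and 13% higher and 4.42% lower in FPKM.

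**Figure D1:**
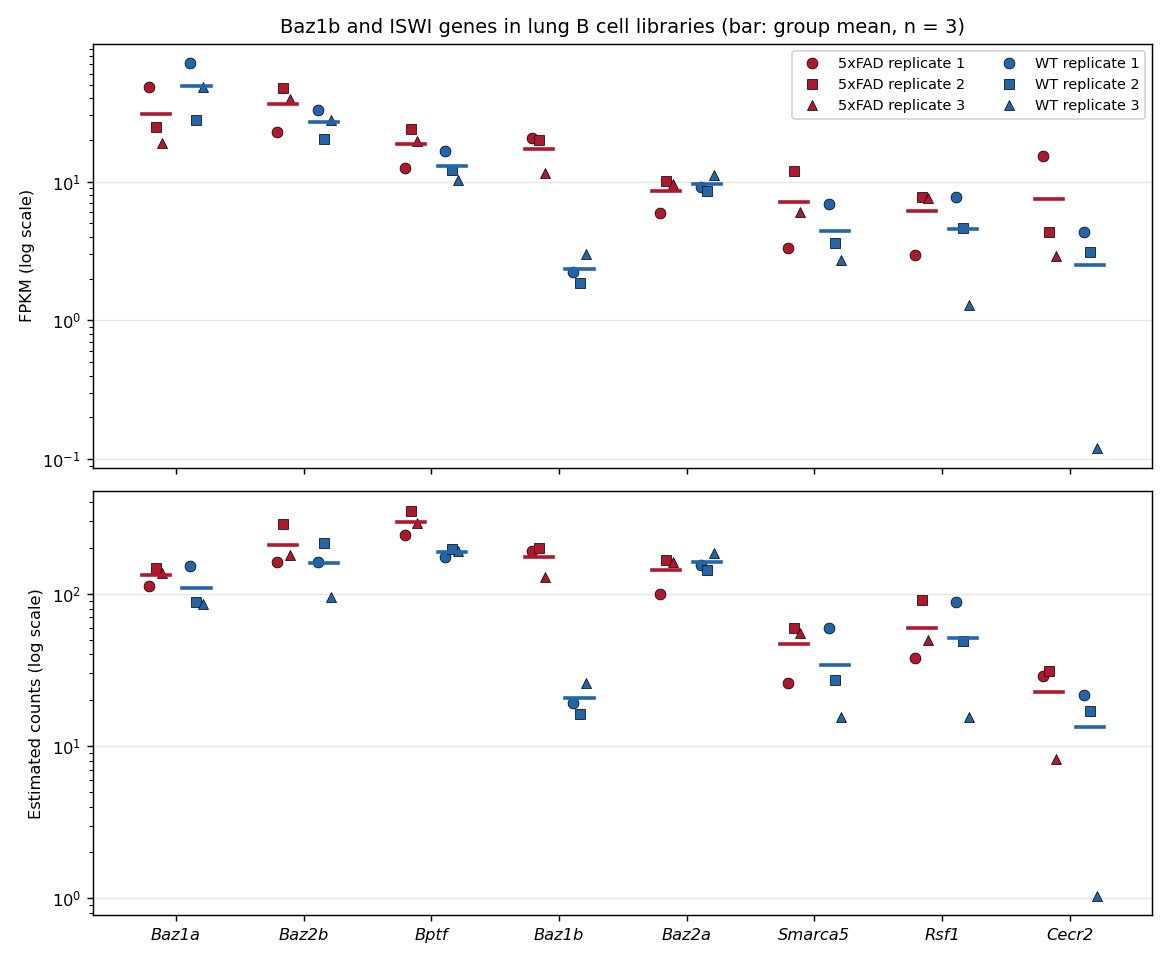
FPKM (top) and estimated counts (bottom) of the 8 expressed genes on log axes, in order of mean FPKM, with red symbols for 5xFAD, blue symbols for WT and bars for group means of 3 libraries. Baz1b has 129 to 201 counts in 5xFAD and 16.2 to 26.1 in WT, while the groups of Baz1a, Baz2a, Baz2b, Smarca5, Rsf1 and Cecr2 overlap in both panels.

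The deposited values also carry the mean transcript length that the authors' software used for each gene. The ratio of counts to FPKM rises with transcript length, and among 211 genes with a single annotated transcript (GENCODE release M21) it gave back the annotated spliced length with a median error of 1 base in every library, and within 20 bases for 66.4% to 67.8% of these genes. For a gene with several transcripts the ratio gives a mean length, weighted by the transcripts credited, which need not identify any of them. Of 48 gene and library values of the members, 9 lay within 3 bases of an annotated transcript, 6 of them of Baz2a. For Baz1b this mean length was 4686, 5126 and 5621 bases in 5xFAD replicates 1, 2 and 3. In WT it was 4414, 4416 and 4412 bases. The WT values lay within 4 bases of each other, and every 5xFAD library lay above them. Among 4796 tested genes with at least 3 counts in every library, 8.26% had longer implied lengths in 5xFAD without overlap and 4.46% had shorter ones. FPKM per count of Baz1b varied 1.28-fold between libraries, less than the median of 1.71-fold over these genes, so a shift of this size is common in the table. GENCODE lists 5 transcripts of Baz1b, of which the protein-coding Baz1b-201 has 6492 spliced bases and the retained-intron transcript Baz1b-204 has 4406. The WT means lie within 10 bases of Baz1b-204, and the 5xFAD means lie between the lengths of these 2 transcripts.

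If the counts are split between Baz1b-201 and Baz1b-204 alone, the protein-coding transcript takes 35.6, 88.5 and 86.9 counts in 5xFAD and 0.11, 0.112 and 0.114 counts in WT. The retained-intron transcript takes 154, 113 and 41.9 counts in 5xFAD and 19.2, 16.1 and 26 counts in WT. The split rests on an annotation that may differ from the one the authors used, and on leaving out the 3 shorter transcripts. Both parts were higher in every 5xFAD library than in any WT library. They divide the counts by which Baz1b was chosen, which favours this separation, so nothing is read from it. Values as far under a single read as the WT values of the protein-coding transcript can be failed estimates of the software, so no fold is given for it, and whether the WT reads of the coding mRNA were lost in the estimate was not tested.

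**Figure D2:**
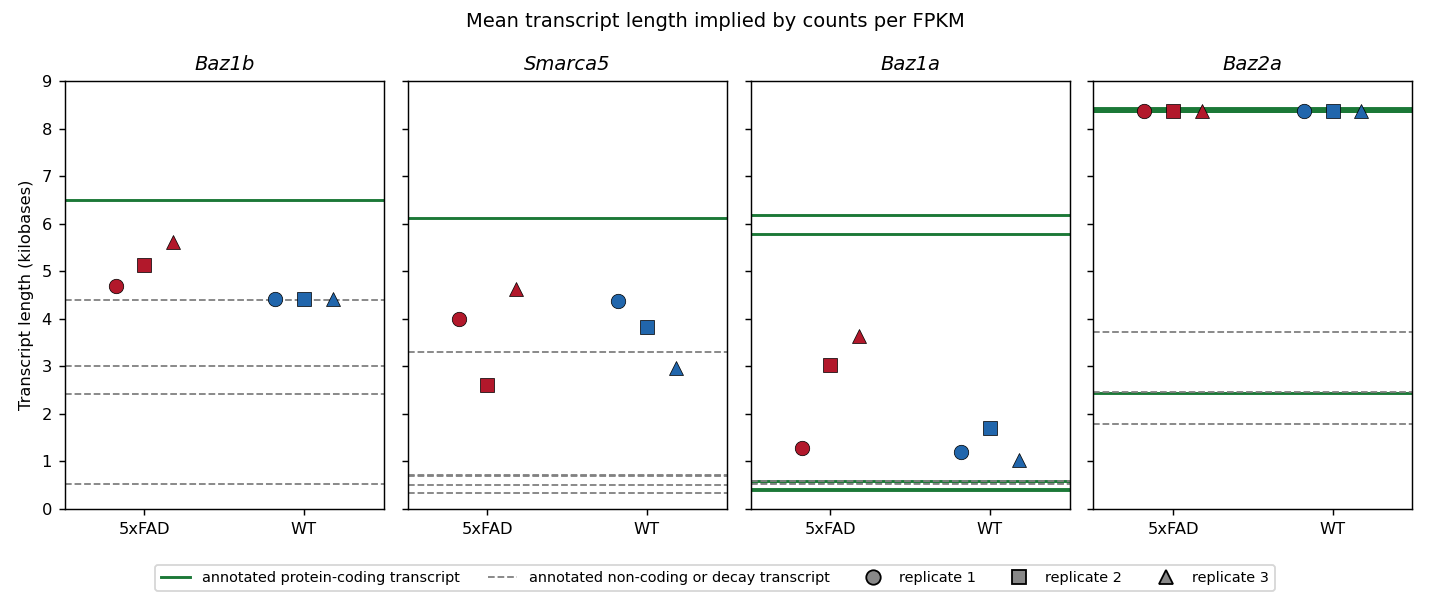
Mean transcript length in kilobases implied by counts per FPKM, for 4 genes, with red symbols for 5xFAD and blue symbols for WT. Lines mark annotated spliced lengths, solid green for protein-coding transcripts and dashed grey for others. The WT libraries of Baz1b lie close to the length of the 4406-base retained-intron transcript and its 5xFAD libraries at 4686 to 5621 bases, whereas Baz2a sits at 8369 to 8372 bases in all 6 libraries.

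Smarca5, the ATPase that BAZ1B needs for remodelling (ENSMUSG00000031715, chromosome 8, 80698507 to 80739497, minus strand), did not differ in a detectable way. It had 25.9, 59.6 and 55.0 counts in 5xFAD and 59.3, 27.1 and 15.6 in WT. In FPKM these were 3.32, 11.9 and 6.02 in 5xFAD and 6.90, 3.61 and 2.71 in WT. The groups overlapped on both scales, with 5xFAD replicate 1 among the low libraries and WT replicate 1 among the high ones. The log2 fold change was 0.34 (SE 0.68, 95% interval -1.06 to 1.74; adjusted p = 0.900 by the quasi-likelihood test of edgeR with Benjamini-Hochberg adjustment). The interval spans changes of over 1 log2 unit in both directions, so a change of that size is not excluded. Without WT replicate 3 the value was -0.02. Its implied mean length ran from 2603 to 4637 bases in 5xFAD and from 2974 to 4368 bases in WT, all under the 6113 bases of its coding transcript Smarca5-201.

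Smarca1, the other ISWI ATPase (ENSMUSG00000031099, chromosome X, 47809368 to 47892974, minus strand), was listed at 0 counts in all 6 libraries. A count of 0 allows up to 3 counts per library, or between 3.83 and 4.77 CPM (counts scaled to library size), for counting error only. The gene failed the filter of a mean of at least 1 FPKM and was not tested. All ISWI ATPase signal detected in these libraries was therefore that of Smarca5. SMARCA1 is known mainly from brain and gonads.

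Baz1a, the gene for ACF1 and the closest relative of Baz1b (ENSMUSG00000035021, chromosome 12, 54892989 to 55014348, minus strand), had the highest mean FPKM of the family. Its counts were 113, 147 and 136 in 5xFAD and 153, 88.4 and 86.3 in WT. Its FPKM were 48.4, 24.9 and 19.1 in 5xFAD and 71.3, 27.7 and 47.9 in WT. The scales disagreed on direction, and the groups overlapped on both. On counts the log2 fold change was 0.16 (SE 0.40, 95% interval -0.65 to 0.98; edgeR adjusted p = 0.926), and on log2(FPKM + 1) the mean difference was -0.66 (limma adjusted p = 0.648). The value on counts was -0.01 without WT replicate 2 and also without WT replicate 3. FPKM per count of Baz1a varied 3.95-fold between libraries, with implied mean lengths of 1288, 3033 and 3639 bases in 5xFAD and 1201, 1712 and 1033 bases in WT. Coding transcripts of Baz1a range from 411 to 6188 bases in GENCODE, so the division of its reads between transcripts is uncertain. The table also lists Gm20403 at the same locus, and with both genes summed the log2 fold change on counts was again 0.16.

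Bptf, the gene for the largest NURF subunit (ENSMUSG00000040481, chromosome 11, 107033081 to 107132127, minus strand), had the highest mean count of the partners. It had 243, 352 and 293 counts in 5xFAD and 175, 196 and 191 in WT. It was the 1 partner whose counts did not overlap between genotypes, all 5xFAD libraries being higher, as for 14.3% of all tested genes. The FPKM did overlap, at 12.6, 24.1 and 19.7 in 5xFAD and 16.7, 12.2 and 10.3 in WT. The log2 fold change on counts was 0.51 (SE 0.33, 95% interval -0.15 to 1.18; edgeR adjusted p = 0.571), so the difference did not pass. Its sign stayed positive in each of 19 other analyses, at 0.39 to 0.55.

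Rsf1, the gene for the RSF subunit that pairs with SMARCA5 (ENSMUSG00000035623, chromosome 7, 97579896 to 97718879 as the file gives its locus, plus strand), had 37.9, 91.7 and 49.5 counts in 5xFAD and 88.0, 49.2 and 15.6 in WT. In FPKM it stood at 2.97, 7.77 and 7.65 in 5xFAD and at 7.79, 4.61 and 1.29 in WT. The groups overlapped fully, and the log2 fold change was 0.11 (SE 0.60, 95% interval -1.12 to 1.35; edgeR adjusted p = 0.969). It became -0.29 without 5xFAD replicate 2 and -0.36 without WT replicate 3. The locus also holds Clns1a, and with both genes summed the log2 fold change was 0.20. Across the 6 libraries the counts of Rsf1 and Smarca5 fell in the same order, highest in 5xFAD replicate 2 and lowest in WT replicate 3. Of 28 pairs among the 8 expressed members, 1 showed the same order of counts throughout, and 0 did so in FPKM. The pair was singled out after its values were seen, and the libraries share depth and composition.

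Cecr2, the gene for the CERF subunit (ENSMUSG00000071226, chromosome 6, 120666369 to 120771190, plus strand), had the lowest mean count of the 8 expressed members in both genotypes. It had 28.9, 31.2 and 8.26 counts in 5xFAD and 21.7, 17.1 and 1.04 in WT, the last of which is a single read. Its FPKM were 15.3, 4.36 and 2.90 in 5xFAD and 4.34, 3.11 and 0.12 in WT. The 15.3 FPKM of 5xFAD replicate 1 came with an implied mean length of 1071 bases, that of Cecr2-206. WT replicate 3 gave 4392 bases, the length of the retained-intron transcript Cecr2-207. The log2 fold change was 0.71 (SE 1.10, 95% interval -1.55 to 2.97; edgeR adjusted p = 0.863), and without WT replicate 3 it was 0.07.

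Baz2a, the gene for TIP5 of the nucleolar complex NoRC (ENSMUSG00000040054, chromosome 10, 128092783 to 128129303, plus strand), was the 1 partner with a negative value on both scales, and varied least in FPKM over the 6 libraries (SD 1.76). It had 99.7, 168 and 161 counts in 5xFAD and 154, 143 and 186 in WT. It stood at 5.96, 10.1 and 9.59 FPKM in 5xFAD and at 9.21, 8.51 and 11.1 FPKM in WT. The groups overlapped, 5xFAD replicate 1 being the lowest library. The log2 fold change was -0.33 (SE 0.37, 95% interval -1.10 to 0.43; edgeR adjusted p = 0.797). Its implied length was 8369 to 8372 bases in every library, within 1 base of the coding transcripts Baz2a-201 (8369 bases) or Baz2a-202 (8372 bases), so its counts and FPKM carry the same information.

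Baz2b, a bromodomain relative of Baz2a (ENSMUSG00000026987, chromosome 2, 59899363 to 60209839, minus strand), had 163, 289 and 179 counts in 5xFAD and 163, 217 and 95.7 in WT. Its FPKM were 22.7, 47.5 and 39.1 in 5xFAD and 32.9, 20.4 and 27.9 in WT. The groups overlapped on both scales, and the log2 fold change was 0.27 (SE 0.37, 95% interval -0.48 to 1.03; edgeR adjusted p = 0.838). It was -0.01 without 5xFAD replicate 2 and -0.04 without WT replicate 3. Its implied mean length was 3669, 3137 and 2389 bases in 5xFAD and 2579, 5363 and 1834 bases in WT. The coding transcripts Baz2b-201 and Baz2b-202 have 7576 and 7895 bases.

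**Figure D3:**
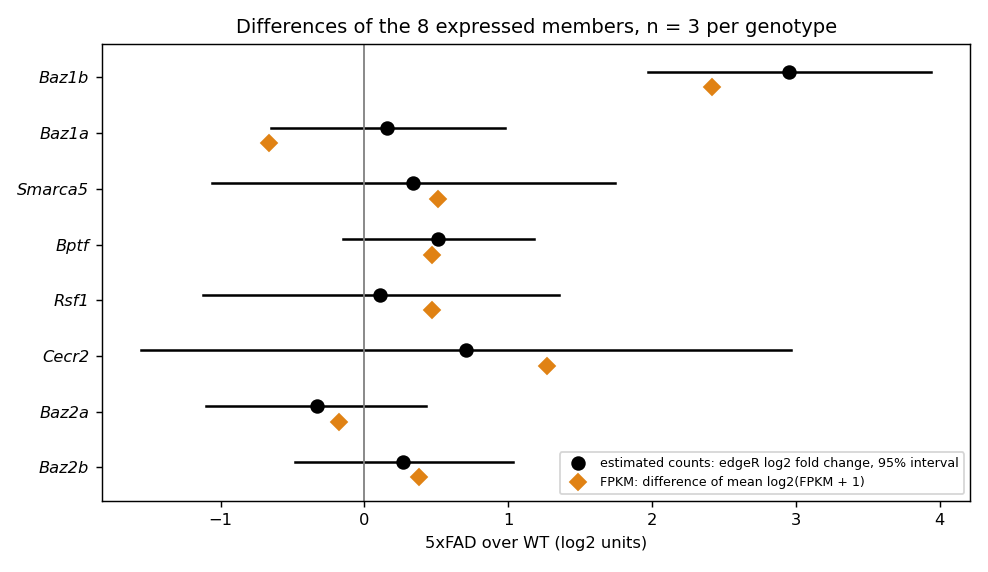
Differences between 5xFAD and WT for the 8 expressed genes in log2 units. Black points and lines are edgeR log2 fold changes of estimated counts with 95% intervals, and orange diamonds are differences of mean log2(FPKM + 1). The intervals of the 7 genes other than Baz1b all include 0, and the sign of Baz1a differs between scales. Baz1b was chosen by these same counts, so its interval is drawn as a description and nothing is read from its distance to 0.

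Of the 8 partners, 7 passed the filter, and 0 of these were called in either direction by edgeR at an adjusted p under 0.05, a rule that called 0.114% of all tested genes. At an unadjusted p under 0.05 the count was also 0 of 7, against 12% of all tested genes, of which 8.46% were higher and 3.55% lower. DESeq2 also called 0 of the 7, and 0.642% of all tested genes. With shares this small, 0 calls are likely for any 7 genes, so these counts cannot show that the partners stayed level. limma on FPKM called 0 of the 7 but also 0% of all tested genes, so nothing is read from its count. Of the 7, 6 had a positive log2 fold change, as did 54.1% of all tested genes, and their median was 0.27, against 0.11 for all tested genes. On FPKM 5 of the 7 differences were positive, as were 60.2% of all tested genes, with a median of 0.47 against 0.24. Summed over the 7 partners, the level was 111, 131 and 104 FPKM in 5xFAD and 149, 80.1 and 101 FPKM in WT, a mean of 115 ± 14.0 in 5xFAD and 110 ± 35.3 in WT (SD, n = 3 each). In estimated counts the sum was 711, 1140 and 881 in 5xFAD and 815, 737 and 592 in WT. The means in counts were 911 ± 216 in 5xFAD and 715 ± 113 in WT (SD, n = 3 each). The near equality of the means in FPKM was thus not seen in counts. The partners as a sum overlapped between genotypes on both scales, and at this depth no partner was called together with Baz1b. Counts of Bptf were higher in 5xFAD without overlap, as for 14.3% of all tested genes, but its FPKM overlapped. Smaller differences of the partners are not excluded.

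The order of levels, compared per transcript length in FPKM, was led by Baz1a at a mean of 39.9 FPKM over the 6 libraries and Baz2b at 31.7. Baz1a was above Baz2b in 4 of 6 libraries, so their order is not settled. The place of Baz1a also rests on its short implied lengths: its mean counts, 132 in 5xFAD and 109 in WT, were below those of Bptf (296 in 5xFAD, 187 in WT), Baz2b (210 in 5xFAD, 159 in WT) and Baz2a (143 in 5xFAD, 161 in WT). Bptf followed at 15.9 FPKM, under Baz2b in 6 of 6 libraries. Baz1b had 9.84 FPKM over the 6 libraries, a mean of 17.3 in 5xFAD and 2.36 in WT, and Baz2a had 9.07. Baz1b was above Baz2a in all 3 5xFAD libraries and below it in all 3 WT libraries. Smarca5 (5.74) was above Rsf1 (5.35) in 3 of 6 libraries, with both orders within each genotype. Cecr2 had 5.03 FPKM and was below Rsf1 in 5 of 6 libraries. Baz1b ranked 3, 4 and 4 among the 8 in 5xFAD replicates 1, 2 and 3, and 8, 8 and 5 in WT.

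Because the proteins of Baz1b and Baz1a pair with the same ATPase, their levels were also set against Smarca5 as a description. The ratio of Baz1b to Smarca5 in FPKM was 6.19, 1.67 and 1.92 in 5xFAD and 0.323, 0.516 and 1.11 in WT. The groups did not overlap, which the choice of Baz1b favours, and the spread came largely from Smarca5. The ratio of Baz1a to Smarca5 was 14.6, 2.09 and 3.17 in 5xFAD and 10.3, 7.67 and 17.7 in WT, and here the groups overlapped. Baz1b made up 15.6%, 13.2% and 9.99% of the summed FPKM of the 8 genes in 5xFAD and 1.47%, 2.27% and 2.88% in WT.

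Among 4713 tested genes with at least 3 counts in every library, the 5 whose log2(FPKM + 1) profile lay nearest to that of Baz1b were Tstd2, Mndal, Bank1, Ncaph2 and Nsmaf. Likeness was the root mean square difference of profiles centred on their means over the 6 libraries, which was 0.294 for Tstd2 and 0.426 to 0.449 for the other 4, against a median of 1.35. Tstd2 had 9.38, 11.7 and 10.8 FPKM in 5xFAD and 0.814, 0.826 and 1.51 FPKM in WT. Bank1, a scaffold of B cell receptor signalling, had 64.4, 56.7 and 45.7 FPKM in 5xFAD and 20, 13.5 and 18.6 FPKM in WT. It is also 1 of the 11 B cell markers summed above, all 11 of which had a positive log2 fold change (median 0.69). Over all tested genes 54.1% did (median 0.11). The part of B cell content in these profiles was not tested. Since the likeness is to a gene chosen for its difference, the 5 nearest genes separate the genotypes by construction. On log2(CPM + 1) 0 of the 5 remained among the nearest 5, so the names depend on the scale.

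**Figure D4:**
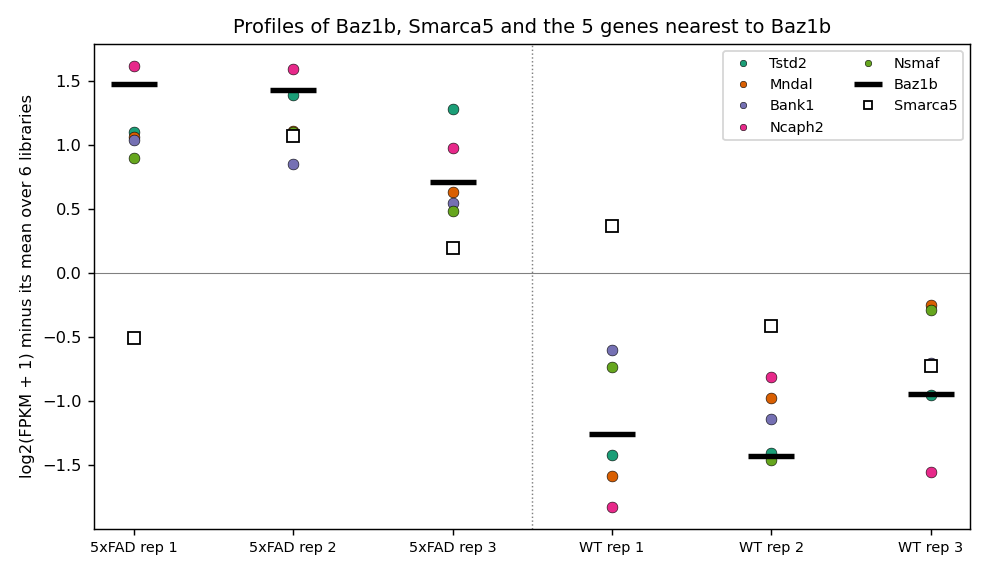
Profiles of log2(FPKM + 1), centred on the mean over 6 libraries, for Baz1b (black bars), the 5 genes nearest to it (coloured points) and Smarca5 (white squares). Baz1b and the 5 genes lie above 0 in all 3 5xFAD libraries and below 0 in all 3 WT libraries, while Smarca5 crosses 0 within both genotypes.

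The remaining subunits of ISWI complexes gave 0 calls with edgeR, where 0.114% of all tested genes were called. Of 5 genes (Chrac1, Pole3, Rbbp4, Rbbp7 and Hmgxb4), all tested, 4 had a positive log2 fold change, with a median of 0.14, and on FPKM 3 did, with a median of 0.59. Pole3, a histone-fold subunit of CHRAC, had 63.8, 7.57 and 0 counts in 5xFAD and 3.95, 1 and 0 in WT (edgeR adjusted p = 0.335), with 5xFAD replicate 1 apart from the others. It was the 1 gene of this list at an unadjusted p under 0.05, as were 8.46% of all tested genes in this direction, but it passed the filter only through 5xFAD, where it is high, so nothing is read from that. Chrac1, its partner in CHRAC, had 43.9, 0.946 and 3.67 counts in 5xFAD and 0, 2.01 and 5.20 in WT, again with 5xFAD replicate 1 apart from the others. Rbbp4, a histone chaperone shared by NURF and other complexes, stood at 9.01 ± 2.84 FPKM in 5xFAD and 15.9 ± 12.8 FPKM in WT (SD, n = 3 each).

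Genes of proteins reported with WSTF in human cells were listed as well, among them nuclear myosin, helicases of rRNA transcription and the EYA phosphatases that oppose its kinase activity. Of 14 such genes 11 were tested, 7 with a positive log2 fold change and a median of 0.26. On FPKM 5 were positive and the median was -0.36, so the scales differ in direction for this list. Of the 11, 0 were called in either direction by edgeR at an adjusted p under 0.05, against 0.114% of all tested genes. At an unadjusted p under 0.05 the count was also 0, against 12% of all tested genes. Myo1c, the nuclear myosin gene, had 351, 253 and 182 counts in 5xFAD and 127, 152 and 176 in WT (log2 fold change 0.69, SE 0.37; edgeR adjusted p = 0.475). Its counts did not overlap, as for 14.3% of tested genes in this direction, but its FPKM did, at 39.2, 40.7 and 22.7 in 5xFAD and 32.0, 22.0 and 19.6 in WT. Ddx21, an RNA helicase of rRNA synthesis, stood at 9.30 ± 1.86 FPKM in 5xFAD and 4.62 ± 2.43 FPKM in WT (SD, n = 3 each; log2 fold change 0.91, SE 0.53; edgeR adjusted p = 0.524). Its groups did not overlap in counts or FPKM, as for 14.3% and 13% of tested genes in this direction. The nearest FPKM values were 7.78 in 5xFAD replicate 2 and 7.29 in WT replicate 2. Eya2, an EYA phosphatase gene, had 0, 0.946 and 0 counts in 5xFAD and 0, 15.1 and 0 in WT (edgeR adjusted p = 0.516), so its value rests on WT replicate 2.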

How the data were processed

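FPKM and estimated counts of each gene in each library were made by the authors and are used as deposited, per the file headers. Tools listed in the submitters' processing notes are Cuffdiff, Cufflinks, HISAT2 2.0.4 and cutadapt 1.9.3, and the builds GRCm38 and mm10, with no role given. The annotation release and the strand setting of counting are not given in the sources used here, so reads of overlapping and antisense genes may be mixed. Count values are mostly whole multiples of a step near 1 per library (93.9% to 97.3% within 0.05), so the deposited counts had been scaled between libraries, and depth limits weak genes. Division by this step, as an alternative added after seeing the data, also gave 11 calls over all genes.

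Columns were matched to samples by description. Rows sharing a symbol (162) were summed, giving 22481 genes. Counts were rounded and tested with edgeR 4.0.16 (quasi-likelihood, TMM, genotype only) in R 4.3.3. The 9651 genes whose FPKM averaged 1 or more entered, with Benjamini-Hochberg adjustment over all of them. Standard errors are the log2 fold change over the root of F. limma 3.58.1 on log2(FPKM + 1) and DESeq2 1.42.0 were alternatives, tested with edgeR on simulated data. Implied lengths came from a robust line (scipy 1.17.1) of counts per FPKM on length, one per library, with starts of loci raised by 1. Members and lists were chosen with earlier results of these data known. All members are named; of other lists, up to 3 genes by smallest p and 2 by FPKM, and the 5 genes nearest to Baz1b. Genes outside this rule are named only by position.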

Additional observations from a re-analysis of the deposited data

How the results depend on the processing

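The count of partners of Baz1b called stayed at 0 in all 19 alternatives, which were 2 other scalings, DESeq2, limma with 2 pseudocounts, 2 filters, Lars2 left out, thinning, rows kept apart, a replicate block, each library left out, and 2 chosen after seeing the data (counts in whole reads, and summed loci). Baz1b was chosen by its call, so the following describes that call and tests nothing. It is the 1 member called, and the count became 0 with limma on log2(FPKM + 1) or log2(FPKM + 0.1), without 5xFAD replicate 1 and without WT replicate 2, so it ran from 0 to 1 with libraries left out. Its log2 fold change ran from 2.42 to 3.15.

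The count over all genes, 11 (10 higher, 1 lower), was 7 with DESeq2 size factors, 27 with upper quartile factors, 62 with DESeq2, 0 with limma at either pseudocount (1148 at an unadjusted p under 0.05 with 1), 62 without a filter, 5 from a mean FPKM of 5 and 7 after thinning. With 1 library left out it ran from 3 (without 5xFAD replicate 1) to 75 (without WT replicate 3), and was 18 and 27 without 5xFAD replicates 2 and 3, and 67 and 4 without WT replicates 1 and 2. The replicate block gave 26 calls. The labels do not say that replicate numbers pair the samples, so the block is an alternative only. Correlations of deviations between samples of the same number were -0.017 to 0.022 over 3 pairs. With 3 libraries per genotype these values cannot settle whether samples were paired.

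Baz1a reversed to -0.66 and -0.68 with limma on FPKM at pseudocounts 1 and 0.1. With 1 library left out, the lowest and highest log2 fold changes were -0.01 and 0.41 for Baz1a, -0.04 and 0.53 for Baz2b, -0.02 and 0.92 for Smarca5, and -0.36 and 0.69 for Rsf1. The negative values came without WT replicate 3, for Baz1a also without WT replicate 2, and for Baz2b (-0.01) and Rsf1 (-0.29) also without 5xFAD replicate 2. The cause of these moves was not tested. Bptf, Cecr2 and Baz2a kept their sign in every alternative. With log2(CPM + 1), 0 of the 5 genes nearest to Baz1b were the same.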

Other observations

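The genes beside Baz1b on chromosome 5, which correspond to the human Williams-Beuren region, were looked at for levels that differ with it. Of 25 listed symbols, 24 were in the table, and the absent Bud23 is another name of Wbscr22. Of the 24, 14 were tested, and edgeR called 0, where 0.114% of all tested genes were called. At an unadjusted p under 0.05, 4 were higher and 1 was lower in 5xFAD, against 8.46% and 3.55% of all tested genes. However, Tbl2 and Wbscr22, which are 2 of the 4, passed the filter only through 5xFAD, so nothing is read from the count. Tbl2, a beta-transducin family gene 21.5 kb from Baz1b, had 41.9, 6.62 and 17.4 counts in 5xFAD and was listed at 0 in the 3 WT libraries. Wbscr22, an rRNA methyltransferase gene, had 6.98, 8.51 and 13.8 counts in 5xFAD and was also listed at 0 in WT. Lat2, a transmembrane adaptor of leukocytes, had 65.8, 24.6 and 43.1 counts in 5xFAD and 12.9, 6.03 and 3.12 in WT (log2 fold change 2.57, SE 0.92; edgeR adjusted p = 0.291). Bcl7b, named for its position 5.4 kb from Baz1b, had 13.0, 18.9 and 24.8 counts in 5xFAD and 21.7, 4.02 and 21.8 in WT, with overlap. Fzd9, 2.8 kb away on the other side and named for its position too, was listed at 0 in every library.

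Other remodelling families gave 0 edgeR calls, where 0.114% of all tested genes were called. Over all tested genes, 54.1% had a positive log2 fold change (median 0.11), 60.2% a positive FPKM difference (median 0.24), and 8.46% were higher and 3.55% lower at an unadjusted p under 0.05. Of 21 SWI/SNF genes tested, 16 had a positive log2 fold change (median 0.34) and 16 a positive FPKM difference (median 0.46), with 2 higher and 1 lower at an unadjusted p under 0.05. Arid2, a subunit of the PBAF form, had 226, 86.1 and 46.8 counts in 5xFAD and 56.3, 23.1 and 7.28 in WT (edgeR adjusted p = 0.245). Smarcc1, a core subunit, had 3.57 ± 1.94 FPKM in 5xFAD and 9.58 ± 5.66 FPKM in WT (SD, n = 3 each; edgeR adjusted p = 0.331). The genotypes overlapped in counts and in FPKM for both genes. Of 17 CHD and NuRD genes, 8 were positive (median -0.01), with Mta3 at 19.0, 48.2 and 49.5 counts in 5xFAD and 7.91, 4.02 and 0 in WT (edgeR adjusted p = 0.293), having passed the filter only through 5xFAD. On FPKM 9 of the 17 were positive (median 0.00). Of 14 INO80, SRCAP and TIP60 genes, 10 were positive on either scale (median 0.49 on counts and 0.66 on FPKM). Of 10 other SNF2 ATPases, 5 were positive on counts (median 0.06) and 8 on FPKM (median 0.47). Of 27 other bromodomain genes, 20 were positive on counts (median 0.36), 16 on FPKM (median 0.09) and 3 were higher at an unadjusted p under 0.05. Among these, Brwd1 stood at 34.3 ± 12.8 FPKM in 5xFAD and 23.9 ± 17.7 FPKM in WT (SD, n = 3 each).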
